A study of Homo sapiens with 6 samples.

Results

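The transcripts described here encode the 4 Argonautes (AGO1, AGO2, AGO3 and AGO4), the 3 TNRC6 proteins (TNRC6A, TNRC6B and TNRC6C) and 3 proteins that work directly with them (MOV10, FMR1 and LIMD1). They were chosen by gene name, 10 genes out of 48162 in the table, and each name occurred on 1 row. The RNA came from HEK293, an established human embryonic kidney line, in which Flag-Ago2 was expressed by transfection together with a small RNA duplex. One group of 3 libraries received mir-219 mimics and the other group of 3 received negative control mimics. Both groups carried the tagged Ago2, complexes were collected on anti-Flag agarose for all 6 libraries, and RNA was sequenced from the precipitates. Each group had 1 library labelled 22 August, 1 labelled 5 September and 1 labelled 18 September.

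Argonaute proteins hold a microRNA and use its seed to find messenger RNAs. AGO2 is the human Argonaute best known for cutting a fully paired target, and its paralogs bind microRNAs as well. TNRC6 proteins, also called GW182 proteins, bind Argonaute through glycine-tryptophan repeats and bring in the enzymes that shorten the poly(A) tail and silence translation. MOV10 is an RNA helicase found in Argonaute complexes, FMR1 encodes the RNA-binding translational regulator FMRP, and LIMD1 is a LIM-domain scaffold that links Argonaute to the cap-binding machinery. A transcript level in a precipitate mixes how much of that messenger RNA the cells held with how much of it came down with Ago2, and no input RNA was part of this comparison. It says nothing of the amount of protein.

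The mimic is named only as mir-219 in the labels, without the mature strand it carries, and the title of the series names microRNA-219a-2. The RefSeq entries of that gene are shown because the seed, bases 2 to 8 and in capitals, is the part by which the transfected RNA would pair with targets (GRCh38.p14, 5′ to 3′). The 5p strand lies at chr9:128392676-128392696 and the 3p strand at chr9:128392632-128392653, both on the minus strand, and their seeds differ.

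hsa-miR-219a-5p: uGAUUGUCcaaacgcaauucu
hsa-miR-219a-2-3p: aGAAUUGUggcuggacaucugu

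Libraries held 20233819 to 34408699 counts, and correlated with each other at 0.9796 or more across 16233 tested genes. All 6 transcripts listed as reported for HEK293 were present in every library, at a summed 915 to 1190 CPM (a library's counts scaled to a common total). Transcripts of intestine and plasma cells, which this line is not known to make, had sums of 0.159, 9.22 and 16.1 CPM in mimic libraries and 30.8, 0.0581 and 24.4 CPM in control libraries, in date order over 9 genes. IGKC was at 0 in all libraries, and IGHA1 was at 0 in 2 of them. The 3 erythroid transcripts reached a sum of 688 CPM in 1 library, the control of 5 September, and at most 0.198 CPM elsewhere. The part of these foreign transcripts in the results below was not tested.

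None of the 10 transcripts passed the test between the mimics. Of all tested genes, 0 of 16233 genes (0%) passed an adjusted p of 0.05 by edgeR's quasi-likelihood test without a block, and 488 (3.01%) had an unadjusted p under 0.05. Of the 10 genes, 0 passed and 0 had an unadjusted p under 0.05. Every one of the 10 had a 95% CI of the log2 fold change inside a 2-fold change in either direction, against 84.4% of all tested genes. The median log2 fold change of the 10 was 0.17, with 9 above 0, where all tested genes had a median of 0.00 and 50.3% above 0. Leaving out both libraries of 22 August, a fit chosen after seeing the data, gave 5 of 10 above 0 and a median of 0.025. With 1 library left out at a time, 8 or 9 of 10 were above 0. The median was then lowest without the control library of 22 August (0.061) and highest without that of 5 September (0.30). In the latter fit 2 of the 10 and 1249 of 16515 tested genes had an unadjusted p under 0.05 by edgeR. On all 6 libraries DESeq2 and limma-voom also called 0 of the 10.

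**Figure D1:**
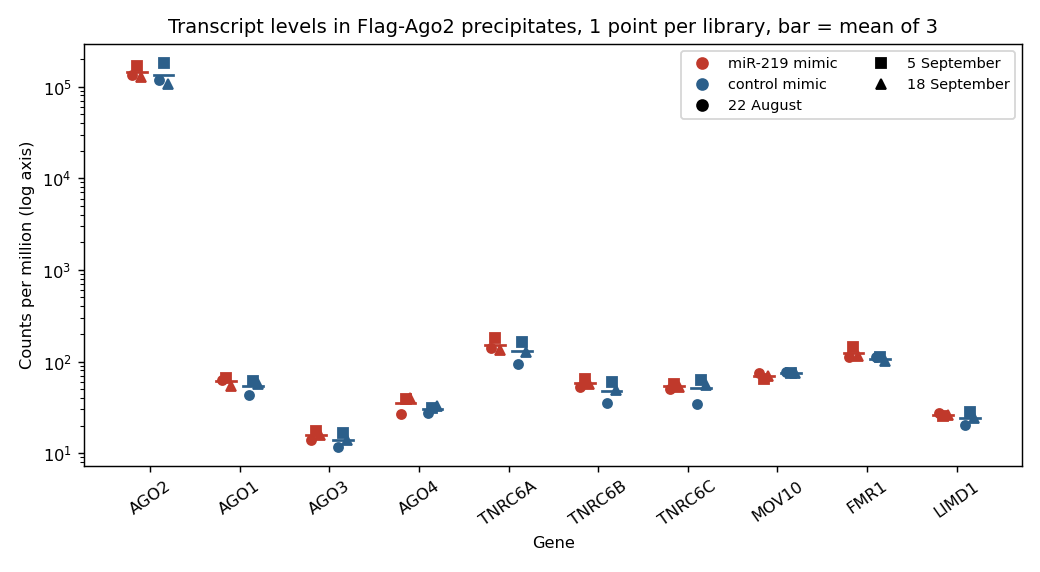
Transcript level (CPM, log axis) of each gene, 1 point per library, coloured by mimic and shaped by date, with bars at the mean of 3 libraries. AGO2 stands at 106386 to 180082 CPM, and the other 9 genes stand between 11.7 and 181 CPM.

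AGO2 (ENSG00000123908, chr8:141541264-141645718 of hg19), the transfected gene, stood at 135267, 166605 and 125862 CPM in mimic libraries on 22 August, 5 September and 18 September, and at 117445, 180082 and 106386 CPM in control libraries. Both groups were highest on 5 September and lowest on 18 September, and their ranges overlapped. As a share of all counts this ran from 10.6 to 18.0%, each known to within 0.0144 percentage points (Wilson 95% interval, counting error only). The means were 142578 ± 21333 and 134638 ± 39742 CPM (SD, n = 3 each; exact permutation p = 0.7, two-sided, where 3 against 3 cannot go below 0.1). The log2 fold change was 0.08 (SE 0.32, 95% CI −0.61 to 0.77), the widest interval of the 10 genes in this fit without a block. With date as a block it was 0.11 (SE 0.13), and the largest SE of the 10 was that of TNRC6C, 0.17. Counts do not separate the transfected transcript from the cell's own AGO2.

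AGO1 (ENSG00000092847, chr1:36335409-36395211) stood at 63.3, 65.8 and 54.4 CPM in mimic libraries and 43.3, 61.4 and 57.2 CPM in control libraries, in date order. The control library of 22 August was the lowest of the 6 and the groups overlapped. Its log2 fold change was 0.19 (SE 0.16). By date the log2 ratio of mimic to control was 0.63, 0.045 and −0.10.

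AGO3 (ENSG00000126070, chr1:36396319-36522063) had the fewest counts of the members, 282 to 572 per library over a gene model of 3649 bases, and a counting error of up to 5.95%. Its levels were 14.1, 17.4 and 15.8 CPM in mimic libraries and 11.7, 16.6 and 13.9 CPM in control libraries. In both groups 5 September was highest. The control library of 22 August was the lowest of the 6. The log2 fold change was 0.16 (SE 0.17), with log2 ratios by date of 0.35, 0.0093 and 0.16. The ratio of 5 September was well within counting error. A single sign on all dates was found for 5 of the 10 members (AGO3, AGO4, TNRC6A, TNRC6B and FMR1) and for 30.0% of all tested genes. Which members had it changed with the gene length trend removed, as described below. AGO4 (−0.25) and FMR1 (−0.012) were then below 0 on 22 August, and TNRC6A was at −0.0012 on 18 September. MOV10 was then below 0 on every date.

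AGO4 (ENSG00000134698, chr1:36273773-36323491) had 26.9, 39.5 and 40.1 CPM in mimic libraries and 27.8, 31.2 and 32.9 CPM in control libraries. Both libraries of 22 August were lower than the other 4. The log2 fold change was 0.20 (SE 0.15). Its log2 ratios by date were 0.039, 0.28 and 0.26, smallest on 22 August, where that of AGO1 was largest.

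AGO4, AGO1 and AGO3 lie in a row on the plus strand of chromosome 1, with 11917 bases between AGO4 and AGO1 and 1107 bases between AGO1 and AGO3. Their counts are small beside those of the transfected paralog. AGO1 had 0.0341 to 0.0538% of the AGO2 counts of the same library, AGO4 had 0.0173 to 0.0319% and AGO3 had 0.00923 to 0.0131%. How reads that match more than 1 gene were counted is not given in the sources used here. The levels of AGO1, AGO3 and AGO4 are therefore uncertain where their sequence is shared with AGO2, and the part of shared reads was not tested.

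Set beside each other per kilobase of gene length, AGO2 exceeded the sum of AGO1, AGO3 and AGO4 by a ratio of 3007, 3017 and 2476 in mimic libraries and 3129, 3668 and 2305 in control libraries, in date order. Both libraries of 18 September had the lowest ratios. On the log2 scale the ratio was 11.46 ± 0.163 in mimic libraries and 11.54 ± 0.341 in control libraries (SD, n = 3 each; exact permutation p = 0.8, two-sided). The difference of −0.079 was smaller than the spread in either group. Leaving out the mimic library of 18 September gave 0.0155, and leaving out the control library of 5 September gave 0.0713. The labels do not say which part of AGO2 the construct carries, so its level per kilobase rests on the table's gene length of 3572 bases.

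Among the 3 endogenous paralogs the shares per kilobase were near equal. This rests on the deposited gene lengths of 12790 bases for AGO1, 7116 for AGO4 and 3649 for AGO3. In counts not divided by length AGO1 held 49.3 to 60.7%, AGO4 25.8 to 36.3% and AGO3 13.4 to 15.2%. Per kilobase AGO1 held 39.3, 33.3 and 29.9% in mimic libraries and 32.3, 34.9 and 34.6% in control libraries. AGO4 held 30.0, 35.9 and 39.6% in mimic libraries and 37.1, 31.9 and 35.8% in control libraries. AGO3 stayed between 29.6 and 33.1% in all 6 libraries. The exact permutation p between mimics was 1 for AGO1, 0.9 for AGO3 and 0.9 for AGO4 (3 against 3, two-sided), so none of these shares differed beyond the spread.

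**Figure D2:**
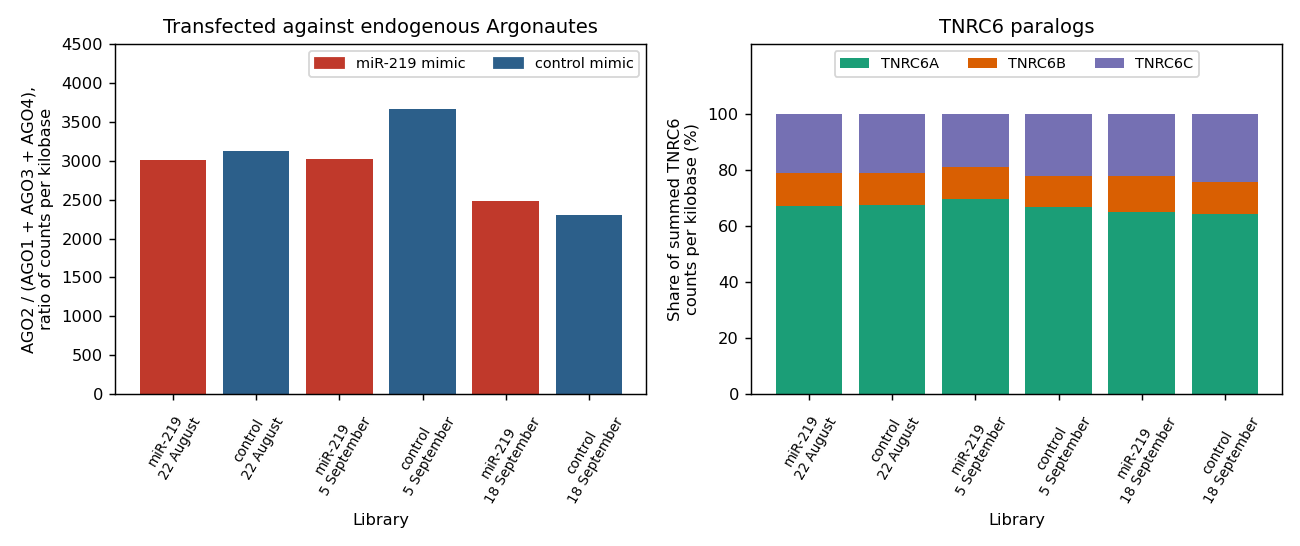
Left, ratio of AGO2 to the summed AGO1, AGO3 and AGO4 in counts per kilobase for each library, coloured by mimic. Right, share (%) of each TNRC6 paralog in their summed counts per kilobase. The ratio is lowest in both libraries of 18 September (2476 and 2305), and TNRC6A holds 64.3 to 69.7% in every library.

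TNRC6A (ENSG00000090905, chr16:24741016-24838953), the scaffold first described as GW182, had 141, 181 and 135 CPM in mimic libraries and 95.1, 165 and 128 CPM in control libraries. The control library of 22 August was the lowest and both libraries of 5 September were the highest. The log2 fold change was 0.24 (SE 0.20). By date the log2 ratio was 0.65, 0.080 and 0.052, above 0 each time.

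TNRC6B (ENSG00000100354, chr22:40440821-40731811) had 53.1, 64.2 and 56.6 CPM in mimic libraries and 35.2, 59.2 and 49.1 CPM in control libraries. Its log2 fold change was 0.28 (SE 0.18, 95% CI −0.11 to 0.66), with an unadjusted p of 0.145 and an adjusted p of 0.999 by edgeR. The groups overlapped, since the control library of 5 September was above 2 of the mimic libraries. The fold change was the largest of the 10 in this fit, but fell to 0.11 without the control library of 22 August, below FMR1 (0.23) and AGO4 (0.15). Its log2 ratio by date was 0.68, 0.060 and 0.18.

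TNRC6C (ENSG00000078687, chr17:76000249-76104916) had 50.8, 56.4 and 53.4 CPM in mimic libraries and 34.0, 62.4 and 55.9 CPM in control libraries. The mimic libraries lay within the range of the control libraries. Its log2 fold change was 0.079 (SE 0.19) and became −0.13 without the control library of 22 August. The log2 ratio was 0.66 on 22 August and below 0 on the later dates, at −0.20 and −0.094.

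Within the family, per kilobase, TNRC6A made up 67.3, 69.7 and 65.1% in mimic libraries and 67.5, 66.9 and 64.3% in control libraries. TNRC6B made up 11.9 ± 0.609% in mimic libraries and 11.3 ± 0.217% in control libraries, and TNRC6C 20.7 ± 1.74% and 22.4 ± 1.75% (SD, n = 3 each). The exact permutation p was 0.5, 0.2 and 0.5 for TNRC6A, TNRC6B and TNRC6C (two-sided, smallest possible 0.1). The control library of 22 August, in which all 3 transcripts were scarcest, had proportions of 67.5, 11.5 and 20.9%, inside the range of the other 5 libraries. The summed TNRC6 transcripts exceeded the summed AGO1, AGO3 and AGO4 by a ratio of 1.97, 1.99 and 1.73 in mimic libraries and 1.59, 2.12 and 1.83 in control libraries (exact permutation p = 0.8, two-sided), per kilobase.

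Of the partners, MOV10 (ENSG00000155363, chr1:113215763-113243368) varied least, with 75.6, 65.3 and 70.3 CPM in mimic libraries and 77.7, 74.6 and 74.2 CPM in control libraries. Its highest level was 1.19 times its lowest. It was the one member with a log2 fold change below 0, −0.094 (SE 0.14). In CPM the mimic library of 22 August lay inside the control range, and after TMM normalization, at 82.2, above it (71.3 to 79.6). The other mimic libraries lay below the control range on both scales, with log2 ratios by date of 0.046, −0.25 and −0.10.

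FMR1 (ENSG00000102081, chrX:146993469-147032645) had 112, 145 and 114 CPM in mimic libraries and 111, 111 and 102 CPM in control libraries. The groups did not overlap in CPM, as was the case for 6.87% of tested genes, but overlapped after TMM normalization, where 8.06% of tested genes and 0 of the 10 members did not. The log2 fold change was 0.20 (SE 0.15), with log2 ratios of 0.10, 0.33 and 0.13 by date. The library that stood apart was the mimic library of 5 September, and without it the log2 fold change of FMR1 was 0.086.

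LIMD1 (ENSG00000144791, chr3:45596886-45727830) had 27.8, 25.2 and 25.9 CPM in mimic libraries and 20.5, 28.5 and 24.4 CPM in control libraries. In CPM the mimic libraries lay within the control range, whose lowest value was again the library of 22 August. After TMM normalization the mimic library of 22 August, at 30.2, was above the highest control, at 29.0. Its log2 fold change was 0.11 (SE 0.16). The log2 ratio by date was 0.52, −0.23 and 0.056.

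Other genes overlapped 8 of the 10 loci in the table, at 0.571% or less of the member's summed counts each. The strand setting of the counting is not given in the sources used here. LIMD1-AS1, on the opposite strand of LIMD1, had 6 counts in all libraries together, and FMR1-IT1, inside FMR1, had 17.

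CPM per kilobase compares genes only as far as the deposited gene lengths hold. On it AGO2 came first with a mean of 38804 over the 6 libraries. FMR1 followed at 26.7, then TNRC6A at 16.7 and MOV10 at 15.6. TNRC6A and MOV10 were not separated beyond their spread, since TNRC6A was the higher in 4 of 6 libraries. Next came TNRC6C (5.36), AGO4 (4.65), AGO1 (4.50) and AGO3 (4.09), each with a range that overlapped its neighbour's. TNRC6B (2.89) and LIMD1 (2.24) came last. AGO3 was above TNRC6B, and TNRC6B above LIMD1, in 6 of 6 libraries, though the ranges over all libraries overlapped. AGO2 stood above 99.99% of tested genes on this scale, FMR1 above 86.6% and LIMD1 above 34.0%.

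**Figure D3:**
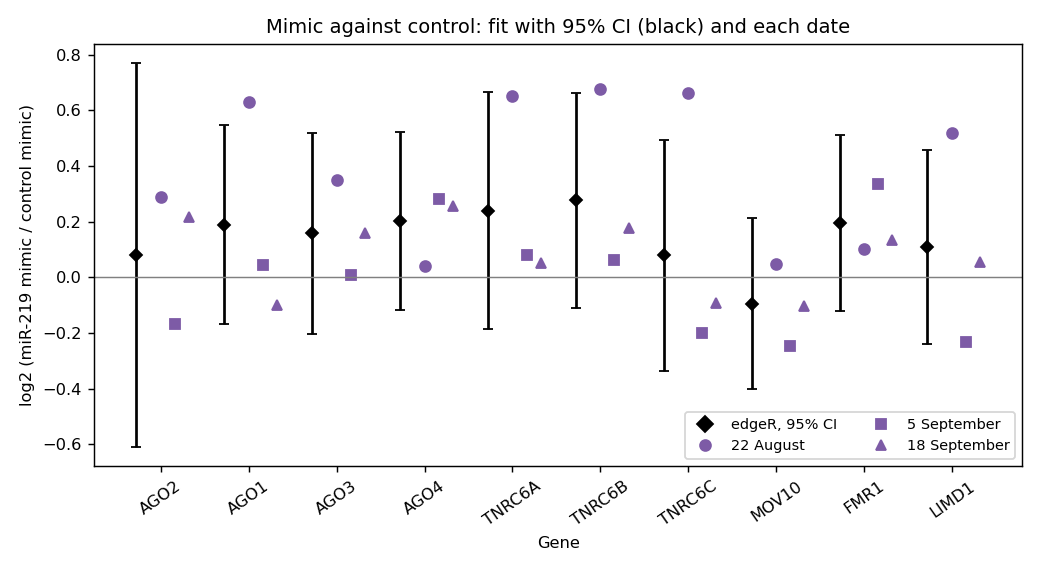
Log2 ratio of mimic to control for each gene, with the edgeR fit and its 95% CI in black and the ratio of each date as a coloured point. All 10 intervals include 0. The point of 22 August lies above those of the other dates for AGO1, TNRC6A, TNRC6B, TNRC6C and LIMD1 (0.52 to 0.68). It also does so for AGO2, AGO3 and MOV10 (0.046 to 0.35).

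The largest ratios were those of 22 August. On that date AGO1, TNRC6A, TNRC6B, TNRC6C and LIMD1 had log2 ratios of 0.52 to 0.68, and the other 5 genes had 0.039 to 0.35. The 5 genes with ratios of 0.52 to 0.68 are the members with the longest gene models, 8438 to 18279 bases, while the others have 3572 to 7116 bases. Over all tested genes of 8000 bases or more (864 genes, a limit chosen after the values were seen), the median log2 ratio on that date was 0.38, and 36.8% had 0.5 or more. Under that length the median was 0.00 and 12.5% had 0.5 or more. On 5 September and 18 September the medians of the long genes were −0.0056 and 0.034.

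The low end was the control library of 22 August. Its long genes had a median log2 level of −0.25 against the mean of the 6 libraries, and those of the mimic library of that date had 0.14. With the trend of each library with gene length removed, the log2 ratios of 22 August became 0.17 for AGO1, 0.30 for TNRC6A, 0.14 for TNRC6B, 0.27 for TNRC6C and 0.088 for LIMD1. Among the shorter members AGO2 had 0.24 and AGO3 0.30, while AGO4 (−0.25), MOV10 (−0.094) and FMR1 (−0.012) turned below 0. The median log2 fold change of the 10 genes over all dates was then 0.083, with 7 above 0. The fold changes of TNRC6C and LIMD1 turned to −0.044 and −0.041 in that fit, and AGO2 was 0.066. In the control library of 22 August the summed intestinal and plasma cell transcripts were also the highest of the 6, and in the mimic library of that date near the lowest. That mimic library had the largest share of mitochondrial counts, 13.3%, against 5.66 to 8.39% in the other libraries. The part of these differences in the ratios of 22 August was not tested.

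**Figure D4:**
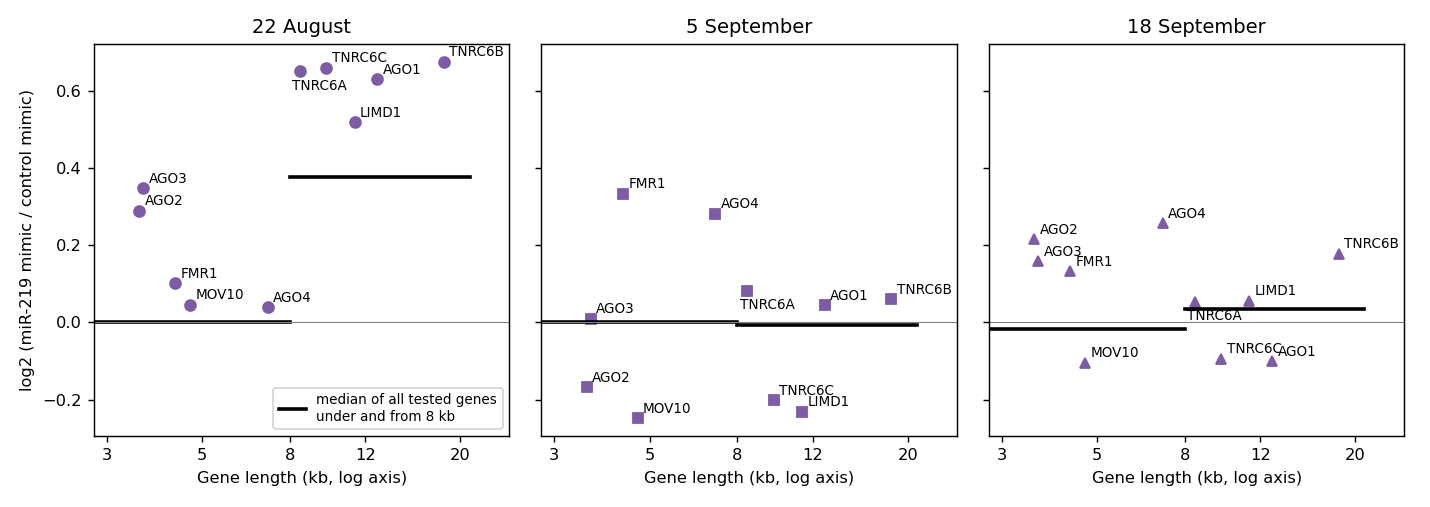
Log2 ratio of mimic to control against gene length (kb, log axis) for the 10 genes, 1 panel per date, with black lines at the median of all tested genes under and from 8 kb. On 22 August the 5 genes longer than 8 kb lie at 0.52 to 0.68, above the median of 0.38 for genes of that length, and on the later dates they spread around 0.

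Dates were also compared directly, each against the mean of the other dates in a fit with mimic as a term. By edgeR 0 of the 10 genes passed for 22 August, where 0.339% of all tested genes did, 0 passed for 5 September (0% of all) and 0 for 18 September (0.0493% of all). At an unadjusted p under 0.05 there were 0 members on 22 August, 3 on 5 September and 1 on 18 September, against 6.89%, 12.9% and 16.4% of all tested genes. DESeq2 and limma-voom called 0 of the 10 on each date as well. For AGO2 the log2 difference was 0.52 on 5 September (SE 0.14, adjusted p = 0.358 by edgeR) and −0.47 on 18 September (SE 0.14, adjusted p = 0.228 by edgeR). TNRC6A had 0.47 and TNRC6B 0.36 on 5 September, which became 0.27 and −0.018 with the trend with gene length removed, while AGO2 had 0.53.

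Calls between dates appeared when single libraries were left out. Without the mimic library of 22 August, TNRC6A (−0.56), TNRC6B (−0.57) and TNRC6C (−0.75) were called lower on that date by edgeR, among 1.6% of all tested genes. There the date is represented by its control library alone. In the same fit AGO1, TNRC6A, TNRC6B and TNRC6C were called higher on 5 September (log2 differences of 0.40 to 0.64), among 14.2% of all genes. AGO2 was called higher on 5 September (0.73) and lower on 18 September (−0.57) when the mimic library of 5 September was left out, and lower on 18 September (−0.36) when its control counterpart was left out. In each of these fits 1 date rests on 1 library, whose spread is assumed to be that of the other libraries. AGO1, TNRC6A, TNRC6B and TNRC6C have long gene models, and long genes as a class stood high on 5 September, as given above. With all 6 libraries and the length trend removed, the 5 September differences of these genes were −0.082, 0.27, −0.018 and 0.064. The part of gene length in the calls was not tested. In the fits that called AGO2, 1.86%, 5.12% and 1.54% of all tested genes were called. Without the control library of 22 August, TNRC6A was called higher on 5 September (0.33, among 6.7% of all genes) and lower on 18 September (−0.36), the latter together with AGO1 (−0.32) among 22.6% of all genes.

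**Figure D5:**
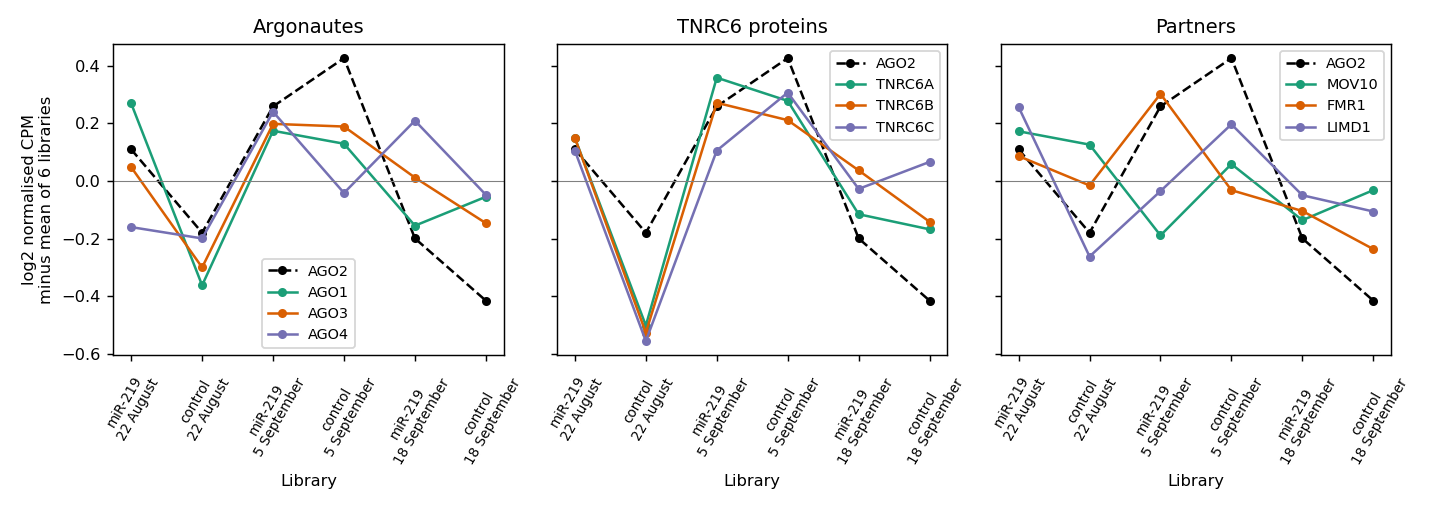
Log2 normalised CPM of each gene minus its mean over the 6 libraries, with AGO2 (dashed) repeated in each panel and libraries in date order. TNRC6A, TNRC6B and TNRC6C share a low point in the control library of 22 August, and AGO2 has its high points on 5 September.

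The levels of AGO2 over the 6 libraries were set against those of all other tested genes by the root mean square difference of their centred log2 levels, as a description. The nearest genes were RBM33 (0.0539), SPRED2 (0.0598), RP11-640M9.2 (0.0604), ZBTB21 (0.0638) and GOLGA4 (0.0683). Among the other members AGO3 (0.181) and TNRC6A (0.185) were nearest to AGO2, at ranks 1015 and 1138 among the 16232 other tested genes. AGO4 (0.315) and MOV10 (0.312) were farthest, at ranks 6011 and 5881, and the median over all genes was 0.361.

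The wider silencing pathway gave no call either. Of 49 listed genes 46 were tested, and 0 were called higher and 0 lower by edgeR. At an unadjusted p under 0.05 there was 1 of the 46, against 3.01% of all tested genes. Their median log2 fold change was 0.024, with 28 above 0 and 18 below. DESeq2 and limma-voom also called 0 of them. Among the 6 tested relatives of Argonaute and of the partners the median was −0.010. The FMR1 paralogs FXR2 (155 ± 11.5 against 164 ± 6.74 CPM) and FXR1 (146 ± 13.8 against 150 ± 8.89 CPM, SD, n = 3 each) had log2 fold changes of −0.080 and −0.041. Of the germline PIWI genes, PIWIL2 and PIWIL4 reached at most 35 and 29 counts in a library, and PIWIL1 and PIWIL3 at most 0 and 1.

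Deadenylation and decay genes, which act after TNRC6 has been recruited, had a median of 0.043, with 13 of 19 above 0. DDX6, the helicase of translational repression and decapping, had 119 ± 19.5 CPM in mimic libraries and 90.9 ± 11.3 CPM in control libraries (log2 fold change 0.40, SE 0.17, unadjusted p = 0.0384, adjusted p = 0.999 by edgeR). Its log2 ratios by date were 0.75, 0.35 and 0.043. CNOT11, a subunit of the CCR4-NOT deadenylase, had −0.22 (SE 0.14).

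Processing and loading genes had a median of 0.014, with 6 of 11 above 0. TARBP2, the partner of Dicer, had −0.24 (SE 0.15) and similar log2 ratios on each date, at −0.18, −0.28 and −0.27. The chaperone HSPA8 had −0.20 (SE 0.16). Among 10 other proteins known from Argonaute complexes the median was 0.022, and GEMIN4, part of the SMN complex, had 178 ± 17.3 against 217 ± 21.2 CPM (log2 fold change −0.28, SE 0.14, adjusted p = 0.999 by edgeR). DDX20, the helicase that binds GEMIN4, had −0.15 (SE 0.13).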

How the data were processed

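The authors deposited counts per gene for 6 libraries, with 0 further columns of per-sample values. Per the submitters' processing notes, hg19, STAR 2.5 and HTSeq 0.6.1 were used. The deposited gene lengths, in bases, were used as given. Groups and dates came from the labels, which do not say whether dates were separate cultures, so p-values cover only the variation among these libraries, which may be technical.

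Counts were fitted in R 4.3.3 with edgeR 4.0.16 (quasi-likelihood F test, TMM, filterByExpr with min.count 10 and min.total.count 15, no block). Benjamini-Hochberg adjustment covered all tested genes, with a threshold of 0.05. Each standard error was taken as the size of the log2 fold change divided by √F. Log2 ratios by date used a prior count of 2 after TMM. CPM values in the text are not TMM-scaled. Gene-length trends were removed by loess (span 0.5). DESeq2 1.42.0, limma 3.58.1 (limma-voom), Python 3.11.15, pandas 2.3.3 and matplotlib 3.10.9 were also used. The code was tested on simulated data.

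Libraries of a date were paired through the labels. Same-date libraries deviated from their group means with correlations of 0.0466, 0.154 and 0.513 in date order. Named genes were all 10 members, the 2 genes with the lowest p of each pathway list, and the 5 genes most like AGO2. PIWI and overlapping genes were added after values were seen. Members and lists were chosen with earlier results of these data known. The length trend and the omission of both 22 August libraries were chosen after seeing the data. Sequences came from RefSeq (GRCh38.p14). Promoters and target sites were not analysed here.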

Additional observations from a re-analysis of the deposited data

How the results depend on the processing

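With 3 libraries per group, no input RNA and 1 library per mimic and date, small differences between the mimics were not detectable, and binding could not be told from amount. Over 15 alternative settings 0 of 149 fold changes of the 10 genes passed the threshold, 140 kept their direction and 9 reversed. The causes were not tested. Without both libraries of 22 August AGO1 was −0.0199, AGO2 −0.0185, TNRC6C −0.151 and LIMD1 −0.0979, and with the gene length trend removed TNRC6C was −0.0443 and LIMD1 −0.0412, while TNRC6B was 0.11. With 1 library left out AGO2 ran from −0.0867 to 0.364, TNRC6C from −0.130 to 0.279, the log2 ratio of AGO2 to its paralogs from −0.264 to 0.0713 and the TNRC6A share difference from −0.0335 to 2.28 percentage points. AGO2 was reversed without the mimic library of 5 September (−0.0254) or the control library of 18 September (−0.0867). Genes called over the whole table went from 0 to 20 (6 higher, 14 lower) with no filter on low counts and to 5 (2 higher, 3 lower) with DESeq2, which changed the tool and the low-count filter together (28658 genes in the fit in place of 16233). Members called between dates ran from 0 to 3 for 22 August, 0 to 4 for 5 September and 0 to 2 for 18 September with 1 library left out. With the replicate block by date AGO2 was 0.11, TNRC6B 0.30 and members called 0 between mimics, so the block changed no call. The exact test of differences within dates cannot go below 0.25.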
